A study of Mus musculus with 6 samples.

Results

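The genes of the proteasome and its immune form were followed through a mouse tumour RNA-seq study. Members were taken by symbol, as every gene named Psma to Psmg followed by a number whose counts summed to at least 15 over the 6 libraries. Of 28368 genes in the table, 48 had such a symbol and 46 had enough counts. All 46 members passed the filter on low counts and were tested. They comprise 5 immune subunits and 41 other genes, namely the constitutive core, the regulatory particle, other activators, an inhibitor and assembly chaperones. The 2 genes left out are tissue-restricted core subunits. The testis alpha subunit Psma8 had 0 counts in 5 libraries and 7 in control 3. The thymus subunit Psmb11 had 0 counts in all 3 treated libraries and in control 1, 5 in control 2 and 8 in control 3.

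Whole tumours of mice were profiled by sequencing of polyadenylated RNA. The 3 treated libraries came from mice under MS-DF-MS therapy for 12 h; the title speaks of implanted depots that release a STING agonist and then an inducer of apoptosis. The 3 control libraries came from untreated mice, so the implant and its drugs cannot be told apart. The labels used here name no tumour line, mouse strain, age or drug, and they do not say whether each library is a separate animal. Without separate animals, p-values would measure a spread between samples that may be technical.

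The proteasome is the protease that breaks down proteins tagged with ubiquitin. Its core is a stack of rings of alpha and beta subunits, in which Psmb5, Psmb6 and Psmb7 carry the cutting sites. Interferon-gamma is known to induce Psmb8, Psmb9 and Psmb10, which take the places of Psmb5, Psmb6 and Psmb7 in newly made cores, and also Psme1 and Psme2, the subunits of the activator PA28. The resulting immunoproteasome is known for cutting peptides that suit presentation by MHC class I. Leukocytes carry it without stimulation, so in a whole tumour fewer cells of a type and less RNA per cell cannot be told apart.

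Libraries held 57017043 to 66634551 counts. Of 18049 genes tested, 246 were higher and 45 were lower in treated tumours by edgeR's quasi-likelihood test (adjusted p under 0.05). Over all genes tested the median log2 fold change, treated against control, lay at -0.003. The treated 3 library stood apart on the first principal component, at 72.9 against -37.9 to 13.3 for the other 5. Values without this library are given beside the immune subunits, the pair ratios and the MHC class I genes.

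Stretches around start sites that match the letters bound by interferon-responsive factors are shown for both immune subunits that hold one and for 3 of the other members, so that the letters can be compared. RefSeq windows (GRCm38.p6) from 250 bases before to 50 bases after the start were found for 39 of the 46 members. Capitals mark the match, read on both strands, and each stretch has 30 bases on the strand of the gene.
Psme1, chr14:55578493-55578522 (+): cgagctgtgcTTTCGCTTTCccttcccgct
Psmg4, chr13:34162969-34162998 (+): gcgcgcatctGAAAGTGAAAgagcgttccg
Psmb3, chr11:97703261-97703290 (+): cacagtgactTTTCACTTTCcgctttccat
Psmb8, chr17:34198088-34198117 (+): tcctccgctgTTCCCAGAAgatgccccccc
Psmd2, chr16:20651646-20651675 (+): gcgcgtggccTTCTGGGAAaaggggcggtg

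The first 3 hold GAAA-NN-GAAA, the core of the interferon-stimulated response element, which occurs in 3.44% of all 32851 windows and in 5 members: Psme1, Psmg4, Psmb3, Psmd4 and Psmd9. In the strand of the gene, with the start as base 1, the match begins at base 10 in Psme1 and at base 16 in Psmg4, and 163 bases before the start in Psmb3. The last 2 hold TTCNNNGAA, the letters of a gamma-activated site, found in 8.3% of windows and in Psmb8, Psmd2 and Psmg1. It begins 97 bases before the start in Psmb8 and at base 5 in Psmd2. The only immune subunits with either match were Psme1 and Psmb8. Not every member had a window, and sites outside the windows or with other letters were not searched. The lack of a match in the other immune subunits therefore does not show that they hold no such site. A match is a description of letters. The windows follow RefSeq starts, which for Psmb8, Psme1, Psmb3 and Psmd9 differ from the gene starts in the deposited table.

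No member was called in either direction, against 1.61% of all genes tested (1.36% higher and 0.249% lower). The 46 members had a median log2 fold change of -0.11, treated against control. A negative value was found for 39 of 46 members, against 50.6% of all genes. The 5 immune subunits had a median of -0.23 and the other 41 members one of -0.10. Without treated 3 the median was 0.04 for the immune subunits, -0.06 for all members and -0.007 for all genes. In that fit 32 members were negative and 0 were called, against 1.85% of all genes called. Leaving out other libraries moved the immune median down, to -0.66 without treated 1 and -0.45 without control 1. There 0 members were called, against 1.42% and 0.727% of all genes. None of the 5 immune subunits was called higher, against 1.36% of all genes, and at that share so small a set would seldom hold a call. The 95% intervals of Psmb8 and Psmb9 reach up to 0.97 and 0.79, so an increase within them remains compatible with the values.

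**Figure D1:**
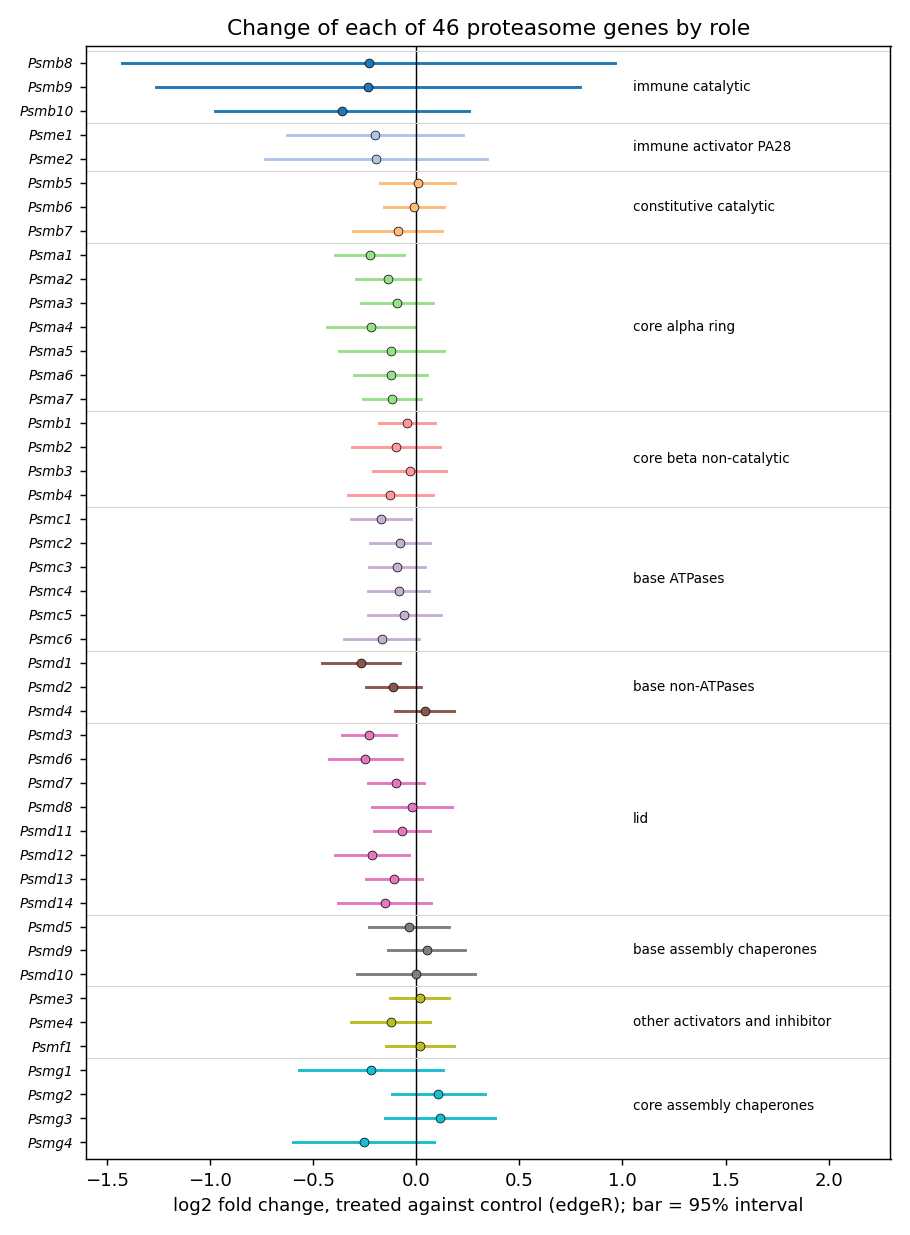
The horizontal axis gives each member's log2 fold change, treated against control, with its 95% interval from edgeR, and rows are grouped by role. The 5 immune subunits at the top have the widest intervals, while most other members lie between -0.27 and 0.12 with narrow ones.

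The immune catalytic subunits varied most between libraries. Psmb8 replaces Psmb5 and lies on chromosome 17 (34197721-34201454). Its level was 75.1, 35.9 and 14.5 CPM in treated 1, 2 and 3, and 31.7, 49.8 and 65.7 CPM in control 1, 2 and 3. CPM is the count scaled to a common library size, with TMM factors. The highest and the lowest value of the 6 were both in treated libraries, so the groups overlapped fully. Its log2 fold change was -0.23 ± 0.52 (SE, n = 3 per group; edgeR adjusted p = 0.878), with a 95% interval from -1.43 to 0.97.

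Psmb9, which replaces Psmb6, lies on chromosome 17 (34181987-34187764), with Tap1 between it and Psmb8. It stood at 53.7, 37.8 and 14.0 CPM in treated 1, 2 and 3, and at 27.5, 39.7 and 57.1 CPM in control 1, 2 and 3. The treated libraries again spanned most of the range of the controls and went below it in treated 3. The log2 fold change was -0.24 ± 0.45 (SE, n = 3 per group; edgeR adjusted p = 0.851), with an interval from -1.26 to 0.79. With this spread, any change of Psmb8 or Psmb9 within its interval remains compatible with these values.

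Psmb10 replaces Psmb7 and lies on chromosome 8 (105935735-105938104). Its level was 71.7, 53.1 and 31.6 CPM in treated 1, 2 and 3, and 54.6, 69.2 and 77.1 CPM in control 1, 2 and 3. Treated 2 and treated 3 lay below every control, and treated 1 lay among them. The log2 fold change was -0.36 ± 0.27 (SE, n = 3 per group; edgeR adjusted p = 0.570).

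The PA28 subunits had a narrower range. Psme1 (chromosome 14, 55578123-55581528) stood at 150.5, 117 and 87.8 CPM in treated 1, 2 and 3, and at 119, 134 and 155 CPM in control 1, 2 and 3. Psme2 (chromosome 14, 55587441-55591113) stood at 86.4, 67.4 and 42.7 CPM in treated 1, 2 and 3, and at 62.5, 79.9 and 82.8 CPM in control 1, 2 and 3. For both genes treated 3 was lowest of the 6 libraries. The groups overlapped through treated 1 for Psme1, and for Psme2 treated 2 lay among the controls and treated 1 above them. The log2 fold change was -0.20 ± 0.18 (SE; edgeR adjusted p = 0.663) for Psme1 and -0.20 ± 0.23 (SE; edgeR adjusted p = 0.748) for Psme2. Without treated 3 the log2 fold changes of Psmb8, Psmb9, Psmb10, Psme1 and Psme2 were 0.18, 0.14, -0.10, -0.03 and 0.04.

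**Figure D2:**
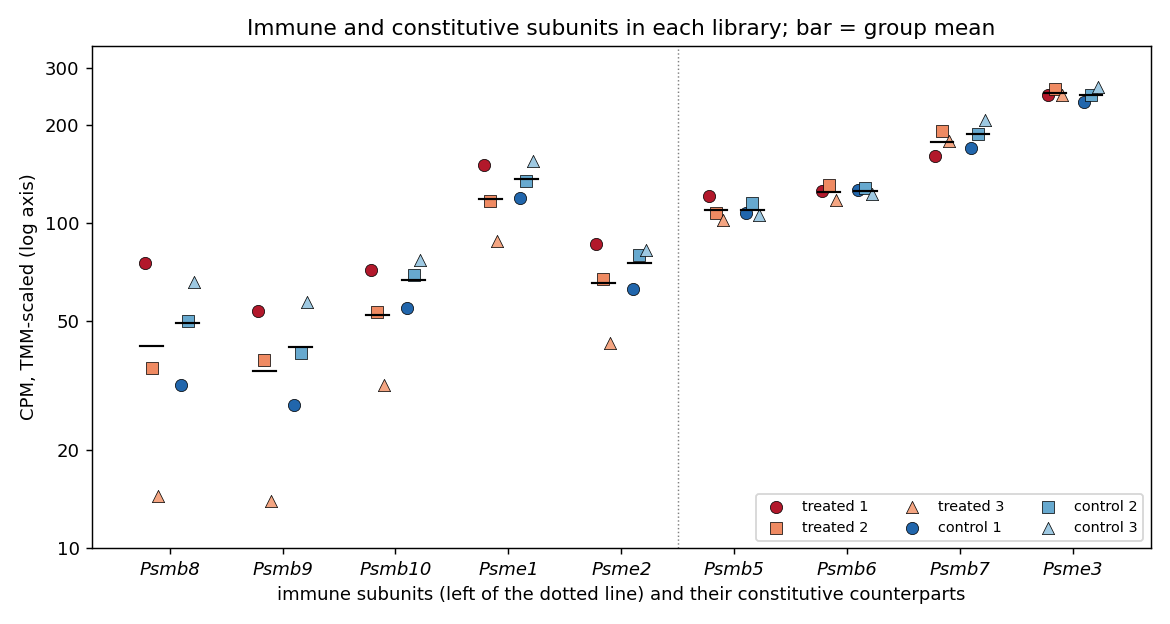
The vertical log axis gives CPM in each library for the 5 immune subunits (left of the dotted line) and the 4 constitutive counterparts, and short bars are group means. Psmb8 runs from 14.5 to 75.1 CPM within the treated group, while Psmb6 stays between 118 and 131 CPM over all 6 libraries.

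The constitutive counterparts were nearly level over the same libraries. Psmb5 was at 121, 107 and 102 CPM in treated 1, 2 and 3, and at 107, 115 and 106 CPM in the controls. Psmb6 was at 125, 131 and 118 CPM in the treated libraries and at 126, 128 and 123 CPM in the controls. Psmb7 was at 161, 191 and 179 CPM in the treated libraries and at 170.4, 187 and 207 CPM in the controls. Their groups overlapped, with log2 fold changes of 0.01 ± 0.08, -0.01 ± 0.06 and -0.09 ± 0.09 (SE; edgeR adjusted p = 0.980, 0.957 and 0.706).
Psme3, whose protein forms a different, mainly nuclear activator, was at 248, 258 and 247 CPM in the treated libraries and at 235, 247 and 261 CPM in the controls (log2 fold change 0.02 ± 0.06, SE; edgeR adjusted p = 0.929).

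The highest-to-lowest ratio of CPM over the 6 libraries was 5.19 for Psmb8, 4.07 for Psmb9, 2.44 for Psmb10, 2.03 for Psme2 and 1.77 for Psme1. Over the other 41 members it ran from 1.10 to 1.55, with a median of 1.22. The median over all genes tested was 1.49. Each immune subunit thus varied more between libraries than any other member, and most other members varied less than the median gene. The levels differ, with a median of 44.6 FPKM for the other 41 members and 3.04 FPKM for all genes tested. Genes of like level were not compared.

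All 5 immune subunits followed 1 order: treated 1 above treated 2 above treated 3, and control 3 above control 2 above control 1. Replicate numbers have no order of their own, so this says only that these genes were high and low in the same libraries. The pattern was noticed in these values and is a description. It held for 4 of the other 41 members and for 4.52% of all genes tested. Treated 3 was the lowest library for 5 of 5 immune subunits and for 26 of the other 41 members, against 16.0% of all genes. The median deviation of the immune subunits from each gene's mean, on the log2 CPM scale, was 0.34, -0.09 and -0.85 in treated 1, 2 and 3, and -0.13, 0.22 and 0.43 in control 1, 2 and 3. For the other 41 members it stayed between -0.10 and 0.12.

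**Figure D3:**
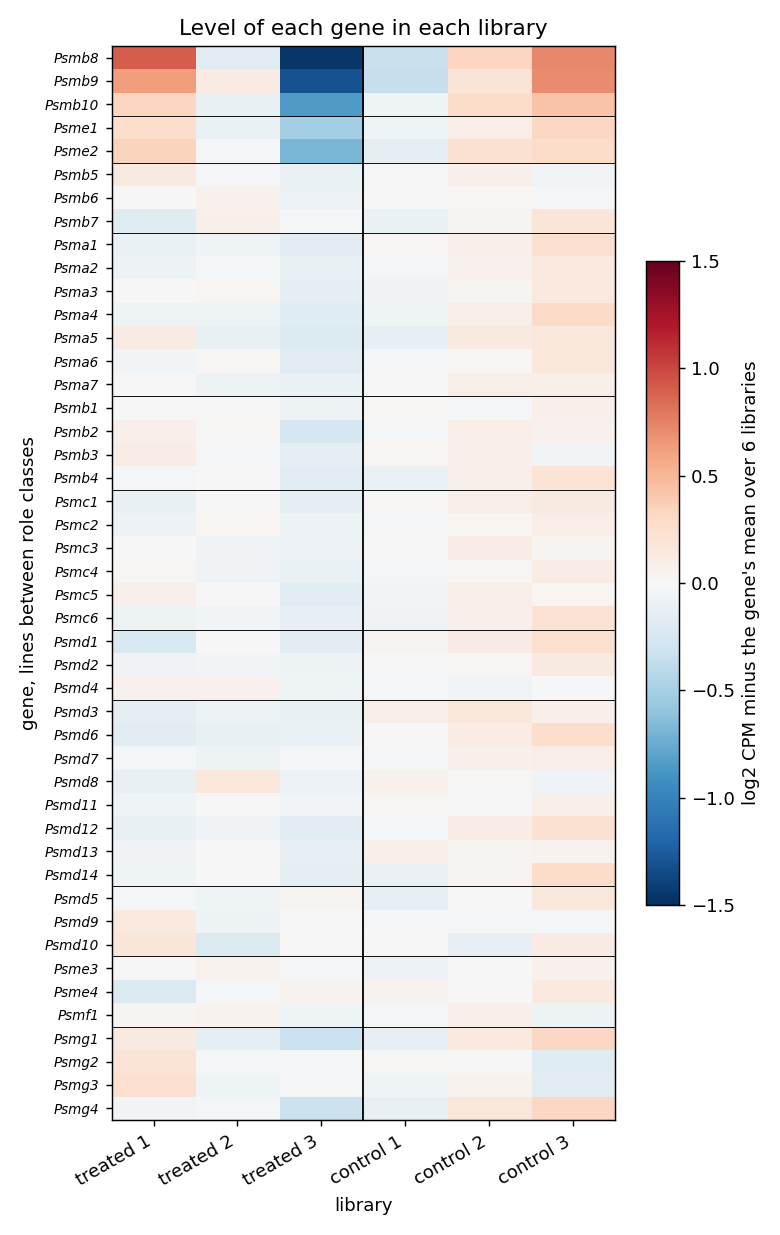
Colour gives each member's log2 CPM minus its mean over the 6 libraries, with members in rows by role and libraries in columns. The 5 immune subunits at the top are high in treated 1 and low in treated 3, and the other 41 rows are paler.

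Within each library, the immune subunit was set against its counterpart on the FPKM scale, which is per gene length. Psmb8 made up 14.2, 8.17 and 3.63% of the Psmb8 and Psmb5 FPKM in treated 1, 2 and 3, and 7.31, 10.3 and 14.1% in control 1, 2 and 3. Psmb9 made up 18.0, 12.9 and 5.73% of its pair with Psmb6 in the treated libraries, and 10.04, 13.7 and 19.2% in the controls. Psmb10 made up 47.2, 35.7 and 26.2% of its pair with Psmb7 in the treated libraries, and 39.1, 42.6 and 42.7% in the controls. The constitutive subunit was therefore the larger part of each catalytic pair in every library, on this scale and also in CPM. The size of a share and the order of the pairs depend on the gene lengths behind FPKM, which were not checked. By FPKM the Psmb10 share came closest to that of its counterpart, in treated 1. In CPM, Psmb10 stood there at 71.7 against 161 for Psmb7, and Psmb8 at 75.1 against 121 for Psmb5, which is closer.

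The PA28 subunits were set against Psme3. Psme1 made up 44.8, 37.7 and 32.2% of its pair in the treated libraries, and 40.4, 42.0 and 44.2% in the controls. Psme2 made up 36.9, 30.4 and 22.4% in the treated libraries, and 30.8, 35.1 and 34.6% in the controls. In all 5 pairs the share was lowest in treated 3.

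The direct comparison of immune with constitutive subunits was the log2 ratio of each pair in CPM. Its mean was lower in the treated group by 0.48 for Psmb8 to Psmb5, by 0.37 for Psmb9 to Psmb6, by 0.34 for Psmb10 to Psmb7, by 0.25 for Psme1 to Psme3 and by 0.26 for Psme2 to Psme3. Exact permutation tests over the 6 libraries, two-sided, gave p = 0.7, 0.6, 0.6, 0.4 and 0.6, and 0.7 for each of the 5 after Benjamini-Hochberg adjustment. With 20 ways to split 3 against 3, the smallest p possible is 0.1. Without treated 3 the difference was 0.09, 0.16, -0.01, -0.06 and 0.01 in the same order of pairs, so it was near 0 or positive without that library. Without control 3 it was -0.21 for Psmb8 to Psmb5 and -0.09 for Psmb9 to Psmb6, and without treated 1 it was -0.98 and -0.77.

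**Figure D4:**
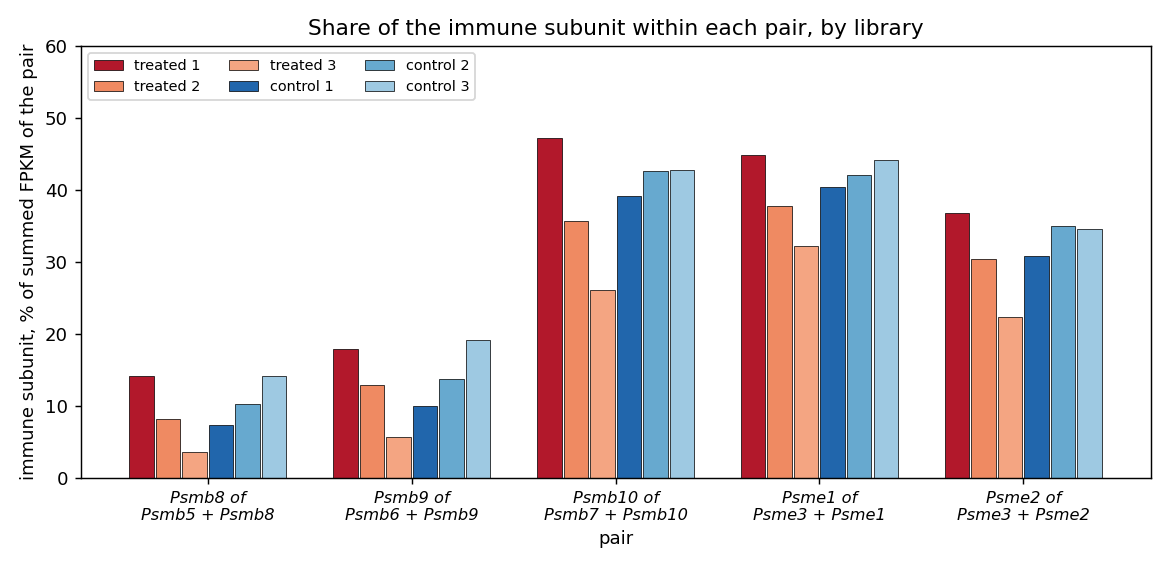
Bars give the immune subunit's percentage of the summed FPKM of each pair in each library, from 0. Treated 3 is the lowest bar in all 5 pairs, and treated 1 is the highest in 4 of them.

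The rest of the core showed small differences, all in the negative direction. The 7 alpha ring subunits, which form the gate, had log2 fold changes from -0.22 to -0.09, with a median of -0.12. Psma1 stood at 156, 161 and 149.8 CPM in the treated libraries and at 171, 176 and 198 CPM in the controls. Every treated library was below every control (log2 fold change -0.22 ± 0.07, SE; edgeR adjusted p = 0.191). The 4 beta subunits without a cutting site, Psmb1 to Psmb4, had values from -0.13 to -0.03.

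The regulatory particle caps the core, recognises ubiquitin, and unfolds the substrate with a ring of 6 ATPases. All 6 ATPases had negative values, from -0.17 to -0.06. Psmc1 was lowest, at 234, 251 and 229.6 CPM in the treated libraries and 256, 270.5 and 278 CPM in the controls (log2 fold change -0.17 ± 0.06, SE; edgeR adjusted p = 0.243). Among the base subunits that are not ATPases, the scaffold Psmd1 stood at 166, 193 and 171 CPM in the treated libraries and at 198, 210.5 and 229 CPM in the controls. Its groups did not overlap (log2 fold change -0.27 ± 0.08, SE; edgeR adjusted p = 0.175). The ubiquitin receptor Psmd4 had a value of 0.04 and the scaffold Psmd2 one of -0.11.

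All 8 lid subunits had negative values, from -0.25 to -0.02. Psmd6 stood at 75.8, 77.9 and 78.6 CPM in the treated libraries and at 84.2, 90.7 and 100.7 CPM in the controls (log2 fold change -0.25 ± 0.08, SE; edgeR adjusted p = 0.182). Psmd3, described because it had the smallest p of the members, stood at 173, 182 and 177 CPM in the treated libraries and at 206, 215 and 202 CPM in the controls. For both lid genes every treated library lay below every control. The log2 fold change of Psmd3 was -0.23 ± 0.06 (SE; edgeR unadjusted p = 0.00381, adjusted p = 0.108). By DESeq2, Psmd3 (adjusted p = 0.0290) and Psmd1 (adjusted p = 0.0462) were called lower, against 1.89% of all genes by that tool. By limma-voom with sample weights, Psmd3 alone was called (adjusted p = 0.0330), against 1.06%. Neither tool called a member higher, against 4.47% of all genes by DESeq2 and 3.33% by limma-voom. Psmd14, the deubiquitinase of the lid, had a value of -0.15.

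The groups did not overlap for 10 members, each lower in treated tumours: Psma1, Psma4, Psmc1, Psmd1, Psmd2, Psmd3, Psmd6, Psmd7, Psmd12 and Psmd13. That is 10 of 46, against 11.2% of all genes lower without overlap and 12.0% higher. None of the 10 was among the 5 immune subunits, and at a share of 11.2% so small a set could well hold none. An unadjusted p under 0.05 by edgeR was found for 7 of 46 members, against 16.0% of all genes in either direction. All 7 were lower in treated tumours, against 6.90% of all genes that had such a p and were lower.

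Among the remaining members, Psme4, a further activator, and Psmf1, an inhibitor, had log2 fold changes of -0.12 and 0.02. The base chaperones Psmd5, Psmd9 and Psmd10 lay between -0.03 and 0.05. The core chaperones Psmg1 to Psmg4 lay between -0.25 and 0.12. Psmg4 (-0.25 ± 0.15, SE; edgeR adjusted p = 0.455) and Psmg1 (-0.22 ± 0.15, SE; edgeR adjusted p = 0.537) had the widest range among the 41 other genes, 1.55 from lowest to highest. Per gene length, the constitutive catalytic subunits averaged 47.2 to 108 FPKM over the 6 libraries, the immune catalytic subunits 9.25 to 30.9 FPKM, and the PA28 subunits 35.2 and 51.0 FPKM.

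Genes that work with the proteasome but fall outside the symbol rule were read from a list of 23. Their median log2 fold change was -0.06, and 15 of the 23 had a negative value, against 50.6% of all genes.

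Of 12 genes that supply or load MHC class I peptides, 0 were called by edgeR, against 1.61% of all genes, and 3 had an unadjusted p under 0.05, against 16.0% of all genes. The median log2 fold change of the 12 was 0.03. Those 3 were Pdia3 and Calr, chaperones of the loading complex (-0.16 and -0.20), and Tapbp, the bridge to the transporter (0.58 ± 0.22, SE; edgeR adjusted p = 0.262). The transporter genes Tap1 and Tap2 lie between and beside Psmb9 and Psmb8. Tap1 stood at 154, 123 and 66.7 CPM in the treated libraries and at 54.8, 81.1 and 110.1 CPM in the controls (log2 fold change 0.49 ± 0.33, SE; edgeR adjusted p = 0.527). Tap2 stood at 71.8, 61.0 and 29.6 CPM in the treated libraries and at 31.6, 41.3 and 51.3 CPM in the controls (log2 fold change 0.39 ± 0.31, SE; edgeR adjusted p = 0.605). Without treated 3 the log2 fold change was 0.76 for Tap1, 0.68 for Tap2 and 0.79 for Tapbp. Without treated 1 it was 0.22, 0.13 and 0.39, and without control 1 it was 0.27, 0.23 and 0.46. Without control 3 it was 0.76, 0.58 and 0.76. The adjusted p of these 3 genes stayed above 0.05 in each of these fits by edgeR. The order of libraries described above held for 10 of the 12 supply genes.

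Most leukocyte markers tested were also lowest in the treated library that was low in immune subunits. The summed CPM of 20 leukocyte markers, of which 18 were tested, was 199.5, 118 and 85.7 in treated 1, 2 and 3, and 167, 158 and 150.3 in control 1, 2 and 3. The pan-leukocyte gene Ptprc stood at 11.0, 5.61 and 3.06 CPM in the treated libraries and at 7.69, 8.62 and 9.07 CPM in the controls. The markers with 0 counts numbered 1, 1 and 3 in the treated libraries and 0, 1 and 1 in the controls. Treated 3 was the lowest library for 12 of the 18 markers tested. Among the controls, control 1 was lowest for 4 of 18 markers but for 5 of 5 immune subunits. By edgeR 0 of the 18 markers were called higher, against 1.36% of all genes, and 1 lower, against 0.249%. The one called was Lcp1, an actin-bundling protein, at 46.2, 50.2 and 55.0 CPM in the treated libraries and at 73.6, 69.8 and 72.5 CPM in the controls, which is lowest in treated 1 and not in treated 3 (log2 fold change -0.51 ± 0.08, SE; edgeR adjusted p = 0.0200). Its call was lost without treated 2 or any 1 control, with an adjusted p of up to 0.114. Without Lcp1 the summed CPM was 153, 67.7 and 30.8 in the treated libraries and 93.6, 88.1 and 77.8 in the controls. Of the 18 markers tested, 14 had a negative log2 fold change, against 50.6% of all genes, and the median was -0.41. The groups did not overlap for 4 markers lower in treated tumours, against 11.2% of all genes, and for 2 higher, against 12.0%. Those 2, the neutrophil genes S100a8 and S100a9, were described after their values were seen and went the other way between the groups. S100a8 stood at 12.7, 3.14 and 1.32 CPM in the treated libraries and at 0.201, 0.233 and 0.614 CPM in the controls (log2 fold change 4.04 ± 0.89, SE; edgeR adjusted p = 0.0794). S100a9 stood at 26.3, 6.94 and 1.596 CPM in the treated libraries and at 0.541, 0.714 and 1.28 CPM in the controls (log2 fold change 3.78 ± 0.93, SE; edgeR adjusted p = 0.107). For both genes every treated library, treated 3 included, was above every control, and treated 3 was the lowest of the treated. DESeq2 called both higher (adjusted p = 0.00244 and 0.00968), as did edgeR without treated 3 (adjusted p = 0.0227 and 0.0130). Without treated 1 their log2 fold changes were 2.68 and 2.34. The part of leukocyte content in the levels of the immune subunits was not tested.

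**Figure D5:**
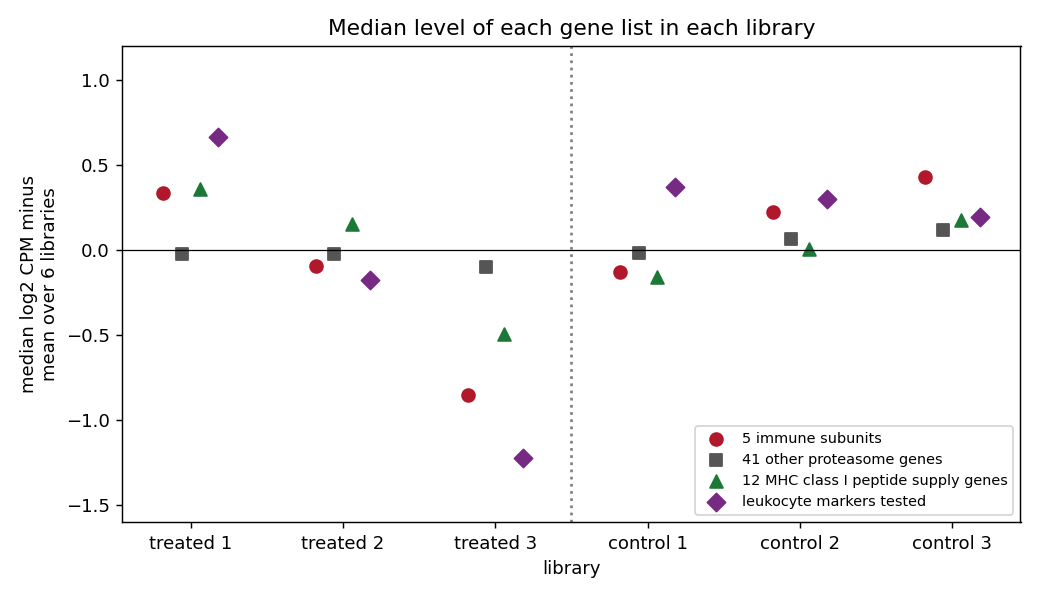
Points give, per library, the median over each gene list of log2 CPM minus the gene's mean over the 6 libraries. A leukocyte marker with 0 counts in a library entered its mean with a very small floor value. That raises its deviation in the other libraries and can shift the median of the list. In treated 1 and treated 3 the immune subunits lie on the same side of 0 as the leukocyte markers (0.34 and 0.67, -0.85 and -1.23), and in control 1 on the other side (-0.13 and 0.37).

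Reads can be shared at some of these genes. Psmb9 and Tap1 overlap by 212 bases on opposite strands, and Gm20496, antisense to Psmb8, had at most 1 count. Nek6 overlaps Psmb7 by 6571 bases on the other strand with 4725 to 5347 counts, so Psmb7 is the less certain denominator of the 3 if counting ignored strand. The pseudogene Psmb5-ps had at most 4 counts, and Psma5-ps had 288 to 383.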

How the data were processed

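Counts and FPKM per gene were available for 6 whole-tumour libraries, 3 of treated and 3 of control tumours by library name. RNA, per the labels' protocols, was selected with oligo(dT), libraries marked strand with dUTP, and reads were paired, of 150 bases. Tools listed in the submitters' processing notes are fastp, StringTie and edgeR. The aligner, the genome build and the use of strand in counting were not given in the sources used here. The authors deposited whole-number counts and FPKM values, per the file headers. FPKM was used for levels and shares per gene length: over 12046 genes, its ratio to the count was constant within 1% for 99.9% of genes in each library. Coordinates are those of the deposited table; GENCODE M21 (GRCm38) holds 99.7% of the identifiers and the same span for 40 of 46 members.

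Counts were fitted in R 4.3.3 with edgeR 4.0.16 (filterByExpr with a minimum count of 10 and total of 15, TMM factors 0.974 to 1.014, glmQLFit and glmQLFTest on group, two-sided, Benjamini-Hochberg over 18049 genes, threshold 0.05), after the script was tested on simulated data. Intervals are 95%. DESeq2 1.42.0, limma-voom 3.58.1, other scaling and filters, a replicate block and leaving out each library were alternatives. Ratios of paired genes were tested by exact permutation over libraries. Where 58 rows repeated a symbol, the row of highest mean count kept it. No 2 libraries agreed within sampling noise.

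Members and gene lists were chosen with earlier results of these data known. Given in full were the immune subunits, their counterparts, and members without overlap that had the most extreme change in their role class. Outside the symbol rule, the rule named the called genes of each list or, with none, the 3 with the smallest p, and Tap1 and Tap2; some of these results are not reported here. Psmd3, Lcp1, S100a8 and S100a9, with their alternatives, were added after the values were seen.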

Additional observations from a re-analysis of the deposited data

How the results depend on the processing

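No member was called under edgeR with DESeq2 size factors, upper-quartile scaling, no filter, a stricter filter of 100 counts in 3 libraries, or with any 1 library left out. DESeq2 called 2 members lower and limma-voom with sample weights 1, against 0 by edgeR, and over all genes they called 998 and 792 against 291. Without a filter 174 genes were called; leaving out 1 library gave 97 to 347. Psmb5 changed sign to -0.0056 with upper-quartile scaling and -0.061 with limma-voom. Leaving out 1 library moved the log2 fold change of Psmb8 over -0.96 to 0.18, Psmb9 -0.68 to 0.14, Psmb10 -0.66 to -0.10, Psme1 -0.41 to -0.03, Psme2 -0.45 to 0.036, Psmb5 -0.063 to 0.057, Psmb6 -0.042 to 0.028 and Psme3 -0.013 to 0.063. For the immune subunits, the lowest value was without treated 1 and the highest without treated 3. The log2 pair ratios ran over -0.98 to 0.087 (Psmb8 to Psmb5), -0.77 to 0.16 (Psmb9 to Psmb6) and -0.50 to 0.0053 (Psme2 to Psme3).

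With the replicate number as a block, 0 members and 137 genes were called. The correlations of same-numbered deviations were 0.09, -0.16 and -0.11. These gave no sign of pairing by number but cannot show that it was absent, and the labels name no batch. Lcp1 lost its call under the block (adjusted p = 0.0786, edgeR). The group differences in log2 pair ratio necessarily keep their values when taken within numbers. A mean of within-number differences equals the difference of the group means, so the unchanged values say nothing about pairing. The part of counting in each member's spread between libraries was not tested.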

Other observations

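Tap1 and Psmb9 are neighbours read in opposite directions, and their RefSeq promoter windows share 275 of 300 bases. The ratio of Tap1 to Psmb9 CPM was 2.87, 3.27 and 4.76 in treated 1, 2 and 3, and 1.99, 2.04 and 1.93 in control 1, 2 and 3. The 3 controls were close together, and every treated library was above them, with treated 3 the highest. On the log2 scale the treated mean was higher by 0.84 (exact permutation test, two-sided, p = 0.1, the smallest that 3 against 3 libraries can give), and it stayed higher, by 0.62 to 0.99, when any 1 library was left out. The ratio of Tap2 to Psmb8 was 0.956, 1.70 and 2.04 in the treated libraries and 0.996, 0.829 and 0.781 in the controls, and these overlapped through treated 1 (log2 difference 0.79, exact permutation p = 0.2). Both ratios were chosen after the values were seen, so their p-values and leave-out values are descriptions only. With every treated library above every control, leaving out 1 could not reverse the sign for Tap1 to Psmb9. The overlap of Tap1 and Psmb9 on opposite strands could share reads if counting ignored strand, and its part was not tested.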
